A study of Mus musculus with 239 samples.

Results

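Basal cells of the pregnant mouse mammary gland were divided by their level of Dll1, the gene of the Notch ligand delta-like 1 (chromosome 17, 15367354 to 15376872, minus strand, GRCm38). The cells were chosen by this one measured value: 50 pregnant basal cells had Dll1 at 1 FPKM or more and are called Dll1-positive, and the other 52 were under 1 FPKM and are called Dll1-negative. FPKM corrects the number of sequenced fragments of a gene for its transcript length and for the depth of the cell. Together these are all pregnant basal cells of a single-cell RNA-seq series from FVB females aged 3 to 4 months, which also holds 49 pregnant luminal, 34 virgin basal and 54 virgin luminal cells. Pregnant mice were at day 12 of pregnancy by their labels and day 12.5 by the protocol. Basal cells were sorted for intermediate CD24 and high CD29 after depletion of blood and endothelial cells, and were captured singly on a microfluidic chip. No allele or treatment distinguished the mice, and the Dll1 division was made on the RNA values themselves, not by a sort for the protein.

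Delta-like 1 sits in the membrane of one cell and binds Notch receptors on a neighbour. Binding lets the receptor be cleaved, and its intracellular part then enters the nucleus and acts with RBPJ on target genes such as Hes1 and Hey1. In the mouse mammary gland, Dll1 is known from basal cells, and Dll1-expressing basal cells have been described as enriched in stem cell activity and as partners of macrophages that carry Notch receptors. The basal layer holds contractile myoepithelial cells that squeeze milk towards the ducts, and it makes much of the basement membrane.

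No label names the mouse or the chip of a cell. Cells are not replicates, so each side counts as 1 sample, and no test or p-value is given. The differences below are Dll1-positive minus Dll1-negative means of log2(FPKM + 1), so that 1 on this scale is close to a doubling for a well expressed gene and less than that for a low one. SDs are over cells, and intervals are exact Clopper-Pearson 95% intervals that cover the counting of cells only; for a count of 0 the limit given is 3 cells of the group. A gene is called found in a cell at 1 FPKM or more.

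Dll1 was a gene of the basal gate in these data. It was found in 50 pregnant basal cells and not in 52 (49%, interval 39 to 59.1) and in 8 of 34 virgin basal cells (23.5%, interval 10.7 to 41.2). It was found in 0 of 49 pregnant luminal cells, for which a limit of 3 cells gives a share of up to 6.12%, and in 0 of 54 virgin luminal cells, where that limit is 5.56%. The exact intervals reach to 7.25% and 6.60%. The highest Dll1 level in a luminal cell was 0.0342 FPKM, although luminal cells were about as deep as pregnant basal cells, with medians of 8.85 M (M for mega) fragments in pregnant luminal, 8.54 M in virgin luminal and 9.11 M in pregnant basal cells. Virgin basal cells were shallower, at a median of 6.18 M, and the part of depth in the lower virgin share was not tested. The 8 virgin basal cells with Dll1 spanned 3.77 to 713 FPKM, so the highest single value of the series lay in a virgin cell.

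**Figure D1:**
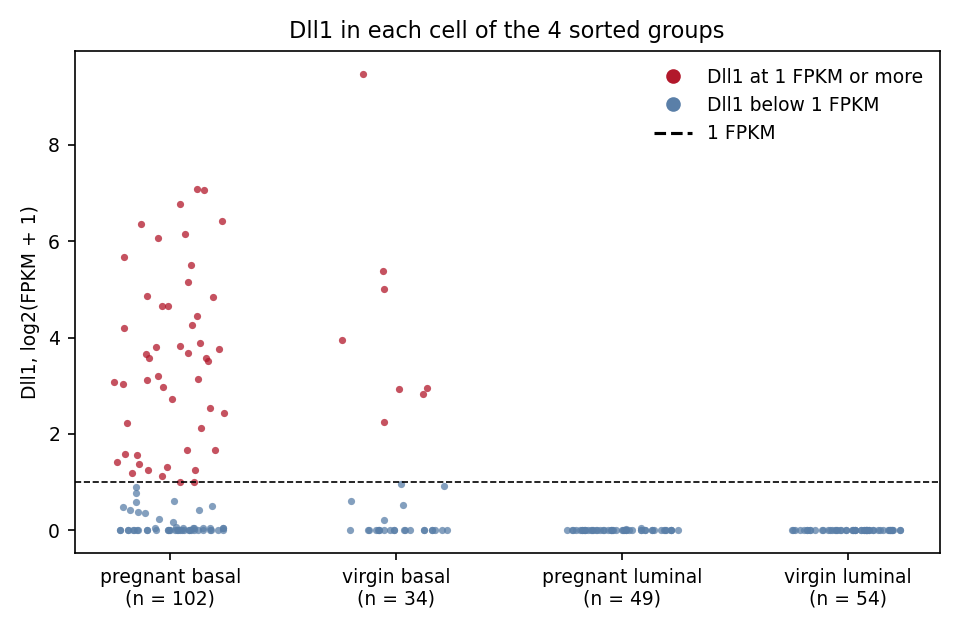
Dll1 level of each cell, as log2(FPKM + 1), in the 4 groups of the series. Each point is 1 cell, red at or above the dashed line of 1 FPKM and blue under it. Pregnant basal cells spread from 0 to 134 FPKM with no empty zone at the threshold, and every luminal cell lies at or next to 0.

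Within pregnant basal cells Dll1 was graded. The 50 Dll1-positive cells ranged from 1.01 to 134 FPKM with a median of 10.7 (quartiles 2.47 and 24.1), which rested on 35 to 4321 fragments of Dll1 per cell and a median of 257. Among the 52 Dll1-negative cells, 31 had 0 and 21 had 0.0268 to 0.875 FPKM, or 1 to 28 fragments. The cells nearest the threshold hardly differed: those just inside had 1.01, 1.01, 1.19 and 1.29 FPKM, and those just outside had 0.875, 0.711, 0.516 and 0.513 FPKM. Some Dll1-negative cells therefore carried Dll1 fragments, and the name describes a level under 1 FPKM and not absence.

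Cells on both sides bore the marks of basal cells. Krt5 and Krt14, the paired keratins of basal epithelium, and Acta2, the smooth muscle actin of myoepithelium, were found together in 46 of 50 Dll1-positive cells and in 46 of 52 Dll1-negative cells. Acta2 was the most abundant of these, at a median of 5054 FPKM (161 to 15527) in Dll1-positive cells and 4735 FPKM (2.94 to 13785) in Dll1-negative cells. Krt14 had a median of 720 FPKM (20.5 to 4889) in Dll1-positive cells and 642 FPKM (0.304 to 3241) in Dll1-negative cells. Trp63, the transcription factor of basal epithelia, was found in 26 of 50 Dll1-positive cells and in 25 of 52 Dll1-negative cells, with means of 2.03 ± 2.25 and 2.04 ± 2.30. The ranges of all of these genes overlapped, and the division did not separate basal from other cells.

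Markers of other cell types were present on both sides. Cdh5 or Pecam1, which mark endothelium, was found in 3 of 50 Dll1-positive and 4 of 52 Dll1-negative cells. The 11 endothelial markers summed to 0 to 926 FPKM in Dll1-positive and 0 to 1985 FPKM in Dll1-negative cells, with a median of 0 on both sides. Krt18, a luminal keratin, reached 10 FPKM in 15 Dll1-positive and 12 Dll1-negative cells. The 13 luminal identity genes summed to a median of 369 FPKM (0.432 to 2174) in Dll1-positive and 331 FPKM (0.813 to 2010) in Dll1-negative cells, and 49 of 50 Dll1-positive and 50 of 52 Dll1-negative cells had a member at 10 FPKM or more. The 8 pericyte markers summed to a median of 0.893 FPKM (0 to 508) in Dll1-positive cells and 0.480 FPKM (0 to 695) in Dll1-negative cells, and Notch3, Kcnj8 and Abcc9 among them were under 1 FPKM in every cell. A pericyte marker reached 10 FPKM in 19 cells of each side, and a Schwann cell marker did so in 27 Dll1-positive and 24 Dll1-negative cells. The 9 fibroblast markers summed to 0 to 61.5 FPKM in Dll1-positive and 0 to 76.5 FPKM in Dll1-negative cells, and one of them reached 10 FPKM in 6 Dll1-positive cells and 1 Dll1-negative cell. The fibroblast genes Col1a1, Lum and Dpt were under 1 FPKM in every cell. The 7 adipocyte markers summed to a median of 0.718 FPKM (0.0225 to 8796) in Dll1-positive and 0.353 FPKM (0 to 27541) in Dll1-negative cells. A member reached 10 FPKM in 14 Dll1-positive and 10 Dll1-negative cells. Fabp4 among them was found in 14 cells of each side and reached 8790 and 27525 FPKM, while Adipoq, Plin1 and Cidec were under 1 FPKM in every cell. The 10 immune cell markers summed to 0 to 153 FPKM in Dll1-positive and 0 to 877 FPKM in Dll1-negative cells. A member of this list reached 10 FPKM in 13 cells of each side. Cd74 was found in 12 Dll1-positive and 11 Dll1-negative cells and Cd68 in 4 and 5, while Ptprc, Csf1r and Adgre1 were under 1 FPKM in every cell. Mki67, a marker of cycling cells, was found in 6 cells of each side.

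The luminal progenitor and alveolar list differed more widely in the sum of its members. Its 10 genes summed to a median of 172 FPKM (0.251 to 1724) in Dll1-positive and 26.4 FPKM (0.238 to 1712) in Dll1-negative cells, and 45 of 50 Dll1-positive and 31 of 52 Dll1-negative cells had a member at 10 FPKM or more. The median difference over the 10 genes was 0.09, or 0.04 in the pairs described below and 0.05 with gene number as a covariate. Over all genes found in any cell the median was 0.05. The highest sums were nearly those of Trf alone. Only 2 members were found in enough cells to be read. Trf, the iron carrier transferrin that is also secreted into milk, had medians of 40.0 FPKM (0.0901 to 1724) in Dll1-positive and 12.8 FPKM (0.0931 to 1711) in Dll1-negative cells and differed by 1.12. It was found in 48.4% of cells with Dll1 at 0 and in 76.2% of those above 0 and under 1 FPKM. Its share was 79.2% at 1 to 10 FPKM and 80.8% at 10 FPKM or more. In virgin basal cells divided in the same way it differed by -0.33. Wfdc18, a small secreted whey acidic protein family member, was found in 21 Dll1-positive and 15 Dll1-negative cells and differed by 0.95. Elf5 and Kit, which define luminal progenitors, were under 1 FPKM in every cell. The part of these cells or genes in the differences described next was not tested.

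More genes were found per cell in Dll1-positive cells. Their median was 2923 genes (1563 to 4212), against 2592.5 genes (1190 to 4611) in Dll1-negative cells, a difference of 330.5. The overlap was wide: 15 of 50 Dll1-positive cells lay below the Dll1-negative median, and 12 of 52 Dll1-negative cells lay above the Dll1-positive one. Depth differed less, with medians of 9.49 M fragments (1.15 to 11.6) in Dll1-positive and 8.89 M (2.02 to 11.7) in Dll1-negative cells. When 40 cells of each side were thinned to 7 M fragments, the medians over the genes with recovered fragments were 2502 in Dll1-positive and 2187 in Dll1-negative cells. The same genes and cells had 2502 and 2183 before thinning. Thinned values were scaled back to FPKM, and only cells that already held 7 M fragments or more were used. This check could therefore hardly move a count of genes at 1 FPKM, and the part of depth in the gap was not tested. Dll1 itself had a Spearman correlation of 0.20 with gene number and of 0.09 with fragment number over all pregnant basal cells. A cell with more genes found can be higher for many genes at once, so each difference is also read in 46 pairs of 1 Dll1-positive and 1 Dll1-negative cell whose gene numbers lay within 10% of each other (medians 2900 and 2702 genes).

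**Figure D2:**
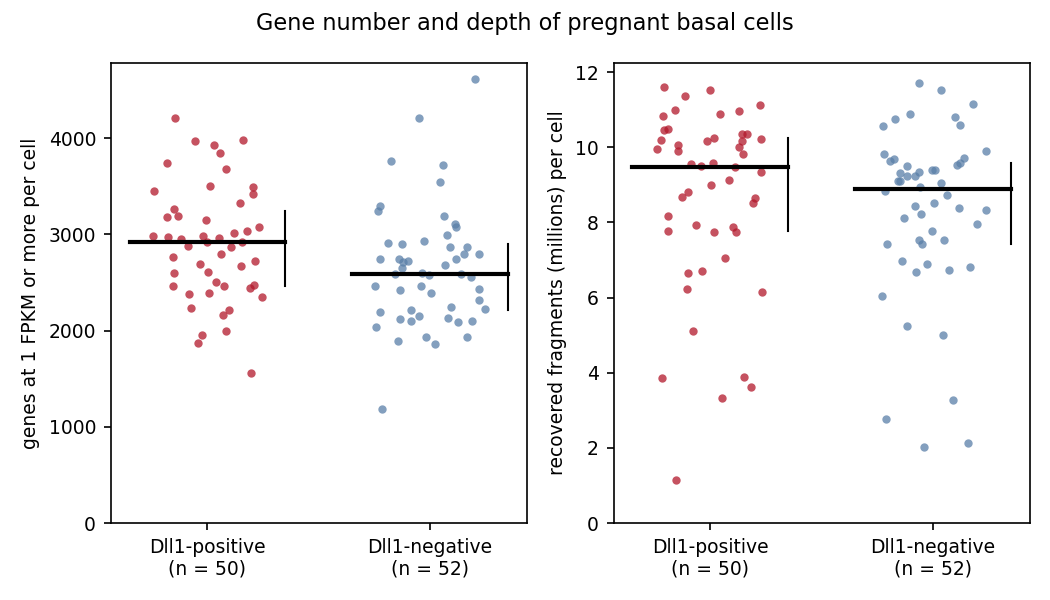
Genes found per cell and fragments per cell in Dll1-positive and Dll1-negative pregnant basal cells. Each point is 1 cell, thick bars are medians and thin vertical lines span the quartiles. The Dll1-positive median lies 330.5 genes above the Dll1-negative one while the clouds overlap along most of their range.

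Beside a broad shift towards Dll1-positive cells, a small share of genes differed by 1 or more. How many genes would pass 1 through variation among cells alone was not tested. There were 4320 genes that reached 1 FPKM in 25% or more of whichever side was higher. Of these, 138 (3.19%) were higher by 1 or more in Dll1-positive cells and 27 (0.625%) were lower by 1 or more. The median difference over the 4320 genes was 0.16, and 64.8% of them were higher. The differences were small beside the variation among cells: the SD over cells had a median of 2.15, and 0 of 4320 genes differed by as much as 1 SD. The largest difference was 0.79 SD. In the pairs alike in gene number, 121 genes (2.83%) were higher and 62 (1.45%) lower by 1 or more, with a median of 0.07. Those 121 held 106 of the 138 higher genes, and those 62 held 23 of the 27 lower genes. With gene number as a covariate 74 genes (1.73%) were higher and 77 (1.80%) lower, so the excess of higher genes was not seen in that fit. Without the cells at 10 FPKM of Krt18, which leaves 35 Dll1-positive and 40 Dll1-negative cells, 294 genes were higher and 48 lower. The calls hang on the Dll1 threshold too: of the 165 genes called in either direction, 78 were still past 1 when every cell above 0 counted as Dll1-positive, 64 at a threshold of 5 FPKM and 58 at 10 FPKM. The counts also hang on the scale, since a pseudocount of 0.1 gave 604 higher and 111 lower genes and a pseudocount of 10 gave 6 and 0.

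**Figure D3:**
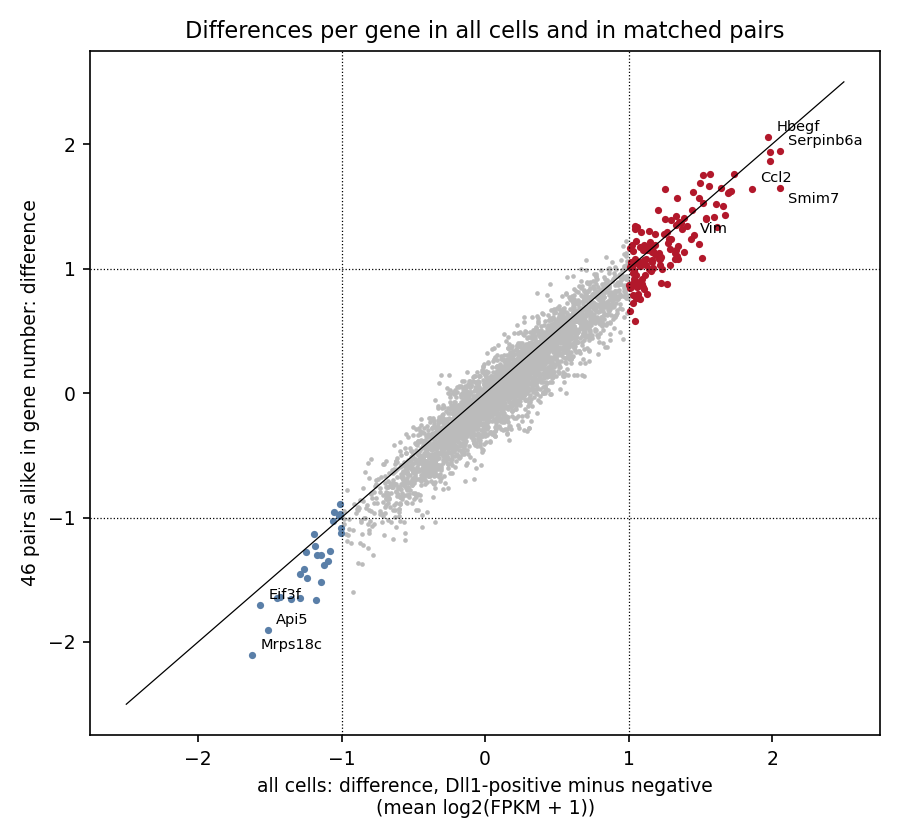
Difference in mean log2(FPKM + 1), Dll1-positive minus Dll1-negative, over all pregnant basal cells (horizontal) and over 46 pairs alike in gene number (vertical). Each point is 1 of the genes found, red where higher and blue where lower by 1 or more over all cells; dotted lines mark 1 and -1 and the solid line equal values. The genes named in the plot, among them Hbegf at 1.97 and Mrps18c at -1.62, are past 1 or -1 in the pairs too, which are drawn from the same cells.

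The 10 genes with the largest excess in Dll1-positive cells were Serpinb6a, Smim7, Tmem176a, Psma5, Hbegf, Ccl2, Rtcb, Cd200, Chil1 and Nmt2, with differences of 1.69 to 2.05. All 10 were also higher by 1 or more in the pairs and with gene number as a covariate, and 6 of them when the division was moved to 10 FPKM of Dll1. These alternatives reuse the cells from which the 10 were chosen, 46 of each side in the pairs, so they are not independent support. The 10 genes share no one function. Signals sent to other cells are among them, beside proteins of general cell upkeep.

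Hbegf encodes heparin-binding EGF-like growth factor, a membrane-anchored ligand of EGFR and ERBB4. It was found in 21 of 50 Dll1-positive cells (42%, interval 28.2 to 56.8) and in 6 of 52 Dll1-negative cells (11.5%, interval 4.35 to 23.4). Its level ran from 0 over a median of 0.0905 to 441 FPKM in Dll1-positive cells and from 0 over a median of 0 to 210 FPKM in Dll1-negative cells. Most cells of both sides were thus under 1 FPKM, and the mean difference of 1.97 (2.55 ± 3.19 in Dll1-positive, 0.58 ± 1.65 in Dll1-negative cells) came from a larger minority of Dll1-positive cells. Tgfa, another EGFR ligand, was found in 12 Dll1-positive and 2 Dll1-negative cells and differed by 0.71. The remaining members of the ERBB list were not higher in this way. Of its members found, 1 of 4, Hbegf itself, was higher by 1 or more, beside 3.19% of all genes found. Hbegf passed the filter of 25% only through Dll1-positive cells, so this count is no separate support. The median over the 11 genes of the list was 0.01, against 0.05 over all genes found in any cell. Nrg1, the neuregulin by which basal cells act on luminal ERBB receptors, was abundant on both sides, with a median of 965 FPKM (0.325 to 4266) in Dll1-positive and 879 FPKM (0.157 to 6167) in Dll1-negative cells. Its difference was -0.14.

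Ccl2 and Ccl7 encode chemokines that draw monocytes through the receptor CCR2, and they lie side by side on chromosome 11 (Ccl2 at 82035571 to 82037453, Ccl7 at 82045712 to 82047525, plus strand, GRCm38). Ccl2 was found in 22 of 50 Dll1-positive cells (44%, interval 30.0 to 58.7) and in 15 of 52 Dll1-negative cells (28.8%, interval 17.1 to 43.1). Its median was 0.399 FPKM (0 to 7517) in Dll1-positive and 0.118 FPKM (0 to 1892) in Dll1-negative cells. A few very high cells carry much of its mean of 468 FPKM in Dll1-positive and 95.8 FPKM in Dll1-negative cells, and its difference on the log scale was 1.86. Ccl7 was found in 16 of 50 Dll1-positive and 6 of 52 Dll1-negative cells, with highest levels of 8671 and 7044 FPKM and a difference of 1.65. Both chemokines were found in the same cell in 12 of 50 Dll1-positive cells and in 2 of 52 Dll1-negative cells. In the pairs their differences were 1.64 for Ccl2 and 1.65 for Ccl7. None of the other macrophage-acting cytokines found reached a difference of 1. Of 9 found, these 2 were higher by 1 or more and 0 were lower, beside 3.19% and 0.625% of all genes found. Ccl7 passed the filter of 25% only through Dll1-positive cells (32%, against 11.5% of Dll1-negative cells), so the count is no separate support. The median over the 17 cytokine genes was 0.06, beside 0.05 over all genes found in any cell. Csf1, the main macrophage growth factor, was found in 23 Dll1-positive and 24 Dll1-negative cells with a difference of 0.21. Cxcl12 was found in 7 Dll1-positive and 15 Dll1-negative cells and differed by -0.65.

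**Figure D4:**
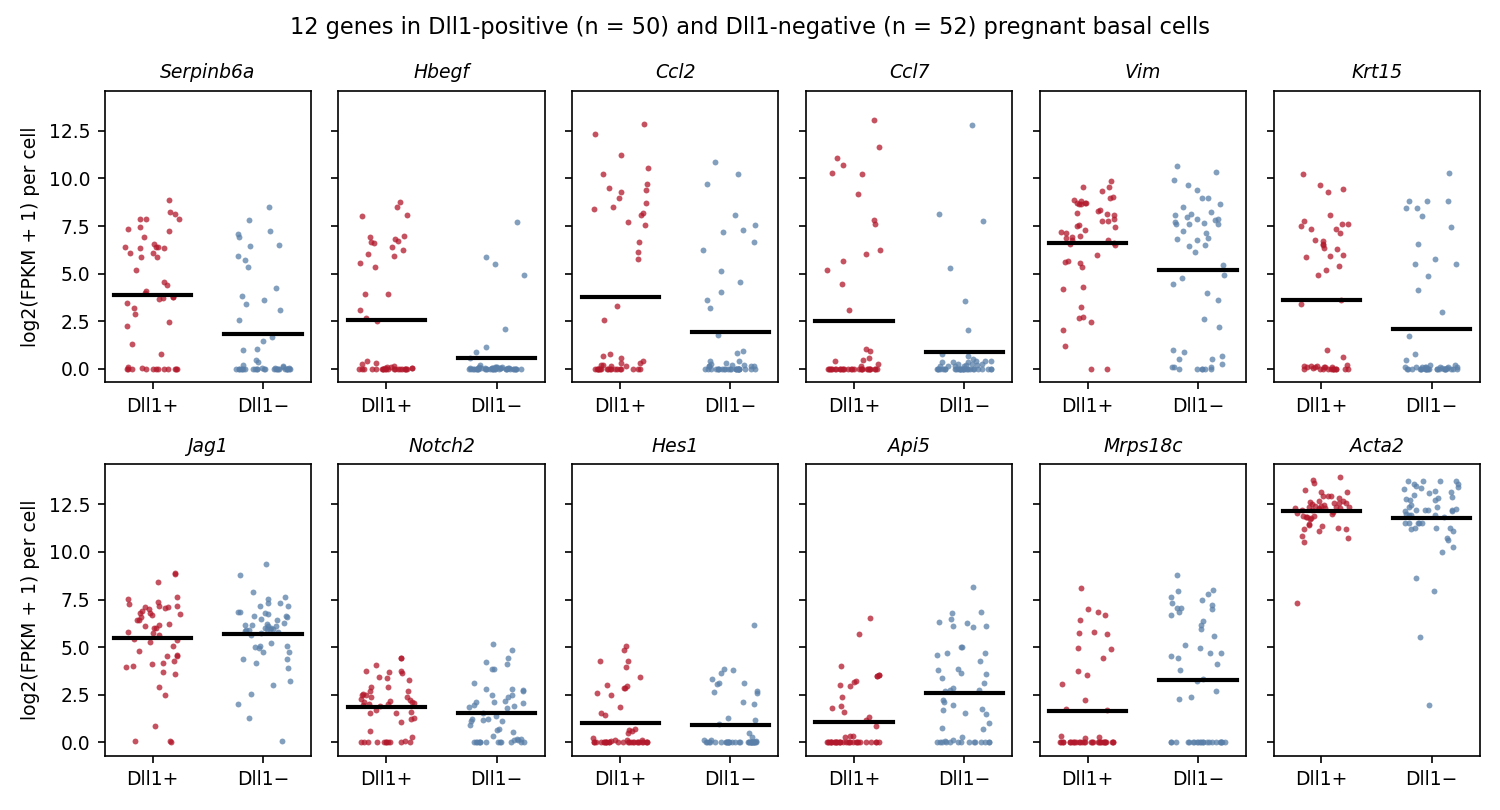
Levels of named genes in single cells, as log2(FPKM + 1), in Dll1-positive cells beside Dll1-negative cells. Each point is 1 cell and each bar a mean. For every gene drawn the cells of both sides cover overlapping ranges.

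Among the other genes at the top, Serpinb6a, an intracellular serine protease inhibitor, was found in 35 of 50 Dll1-positive cells and in 19 of 52 Dll1-negative cells. Its median was 13.9 FPKM (0 to 473) in Dll1-positive and 0.0485 FPKM (0 to 358) in Dll1-negative cells, for a difference of 2.05 (3.88 ± 3.02 and 1.83 ± 2.70). Psma5, a subunit of the proteasome core, was found in 45 Dll1-positive and 33 Dll1-negative cells, with medians of 125 FPKM (0 to 816) and 17.0 FPKM (0 to 548) and a difference of 1.98. These 2 genes and Ccl2 differed by 1 or more under every alternative run. Cd200, a membrane glycoprotein that restrains myeloid cells through its receptor, was found in 38 Dll1-positive and 27 Dll1-negative cells, with medians of 53.5 FPKM (0 to 861) and 7.76 FPKM (0 to 434) and a difference of 1.71. Chil1, a secreted chitinase-like protein, was found in 26 Dll1-positive and 14 Dll1-negative cells and differed by 1.70. C3, the central complement component, was found in 30 Dll1-positive and 18 Dll1-negative cells and differed by 1.56.

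Basal and structural genes gave a mixed picture. Krt15, a basal keratin, was found in 27 Dll1-positive and 16 Dll1-negative cells and differed by 1.54. It was the sole member called among the 10 basal identity genes found, beside 3.19% higher and 0.625% lower of all genes found. Vim, the intermediate filament vimentin, was found in 48 of 50 Dll1-positive cells and in 37 of 52 Dll1-negative cells. Its median was 150 FPKM (0 to 916) in Dll1-positive and 100 FPKM (0 to 1612) in Dll1-negative cells, for a difference of 1.44, or 1.24 in the pairs. Sox9, a transcription factor of mammary progenitors, was found in 48 cells of each side, but its median was 110 FPKM (0.0252 to 502) in Dll1-positive and 47 FPKM (0 to 304) in Dll1-negative cells. Its difference was 0.98, and it was 1.10 in the pairs and -0.05 when the division was moved to 10 FPKM of Dll1. Col18a1, a basement membrane collagen, was found in 39 Dll1-positive and 24 Dll1-negative cells and differed by 1.37.

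In the Wnt list, 2 of 6 members found were higher by 1 or more and 0 were lower, beside 3.19% and 0.625% of all genes found. Ctnnb1, which encodes beta-catenin, was found in 41 Dll1-positive and 36 Dll1-negative cells and had medians of 24.3 FPKM (0 to 881) and 8.18 FPKM (0 to 191), with a difference of 1.21. Wif1, a secreted Wnt inhibitor, differed by 1.19, with 43 Dll1-positive and 36 Dll1-negative cells. Both differences fell under 1 in 5 of 17 alternatives, to 0.50 for Ctnnb1 and 0.31 for Wif1 at the lowest. Ctnnb1 was found in 74.2% of cells with Dll1 at 0 and in 73.1% of those at 10 FPKM or more. Between these levels its share was 61.9% under 1 FPKM and 91.7% at 1 to 10 FPKM. The count of 2 called members therefore hangs on the settings. Sfrp2, another secreted inhibitor, differed by 0.94, and the receptor Fzd7 by 0.76. None of the Wnt ligands in the list reached 1, and Wnt6, the one found often enough, was at -0.18. Axin2 and Lef1, which serve as readouts of the pathway, were found in no pregnant basal cell, for which the limit of 3 cells is a share of 2.94%. These were named after their values were seen, and other pathway genes were not absent. Nkd1 was found in 8 Dll1-positive and 6 Dll1-negative cells (difference 0.16) and Tcf7 in 9 and 6 (0.48). Nkd2 was found in 2 cells of each side (0.15). The median over the 26 Wnt genes was 0.09, beside 0.05 over all genes found in any cell.

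The 10 genes with the largest deficit in Dll1-positive cells had differences of up to -1.62 and no common function. Mrps18c, a protein of the mitochondrial ribosome, was found in 17 of 50 Dll1-positive cells and in 30 of 52 Dll1-negative cells, with medians of 0 FPKM (0 to 277) and 8.74 FPKM (0 to 438). Its difference was -1.62. Eif3f, a subunit of a translation initiation factor, was found in 24 Dll1-positive and 35 Dll1-negative cells and differed by -1.57, and Eif2s1, a subunit of another, was found in 21 Dll1-positive and 31 Dll1-negative cells and differed by -1.29. Api5, an inhibitor of apoptosis, was found in 17 Dll1-positive and 32 Dll1-negative cells and differed by -1.52 (1.10 ± 1.68 in Dll1-positive, 2.61 ± 2.45 in Dll1-negative cells). At -0.72 SD its difference was the largest deficit relative to the variation among cells. Plgrkt, a plasminogen receptor, was found in 9 Dll1-positive and 22 Dll1-negative cells and differed by -1.45. Anxa3, a calcium-dependent membrane-binding protein, was found in 14 Dll1-positive and 25 Dll1-negative cells and differed by -1.43. Ecscr, a surface protein known from endothelial cells, was found in 26 Dll1-positive and 32 Dll1-negative cells, with medians of 3.90 FPKM (0 to 1143) and 119 FPKM (0 to 822). Its difference was -1.35, and it was -1.45 without the 3 Dll1-positive and 4 Dll1-negative cells that held Cdh5 or Pecam1. That alternative was chosen after the data were seen, and the part of endothelial cells was not tested. All 10 were lower by 1 or more in the pairs as well, and 5 of them at 10 FPKM of Dll1. The pairs reuse cells from which the 10 were chosen and are not independent support. Dll1-positive cells had the higher median number of genes found, and the part of gene number in these deficits was not tested.

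Few Notch pathway genes could be read. Of 40 pathway genes in 5 lists, 39 were in the table and 10 were found. Of these 10, 0 were higher or lower by 1 or more, beside 3.19% higher and 0.625% lower among all genes found, so the count is near the background. Jag1, the other main Notch ligand of these cells, was found in 46 of 50 Dll1-positive cells and in 51 of 52 Dll1-negative cells, at medians of 63.4 FPKM (0.0191 to 476) and 62.4 FPKM (0.0547 to 654). Its difference was -0.22, and it was -0.86 when the division was moved to 10 FPKM of Dll1. Dll1-negative cells were therefore not cells without RNA of a Notch ligand. Jag2 was found in 12 Dll1-positive and 8 Dll1-negative cells. Dll4 was found in 0 Dll1-positive cells and 1 Dll1-negative cell.

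Of the receptors, Notch2 was the one most often found, in 36 Dll1-positive and 30 Dll1-negative cells with medians of 3.15 FPKM (0 to 20.8) and 1.35 FPKM (0 to 35.1). Notch1 was found in 4 Dll1-positive and 8 Dll1-negative cells, and Notch3 in no cell. The target gene Hes1 was found in 15 cells of each side, with means of 1.01 ± 1.56 in Dll1-positive and 0.90 ± 1.49 in Dll1-negative cells. Hey1 was found in 0 Dll1-positive and 2 Dll1-negative cells, and Nrarp, a target that feeds back on Notch, in 0 Dll1-positive and 3 Dll1-negative cells. Counts this small cannot show a difference at this depth. Psenen, a subunit of the gamma-secretase that cleaves Notch, was the exception, with 23 Dll1-positive and 33 Dll1-negative cells and a difference of -0.80. It reached -1.03 in the pairs, where it was the sole pathway gene called.

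**Figure D5:**
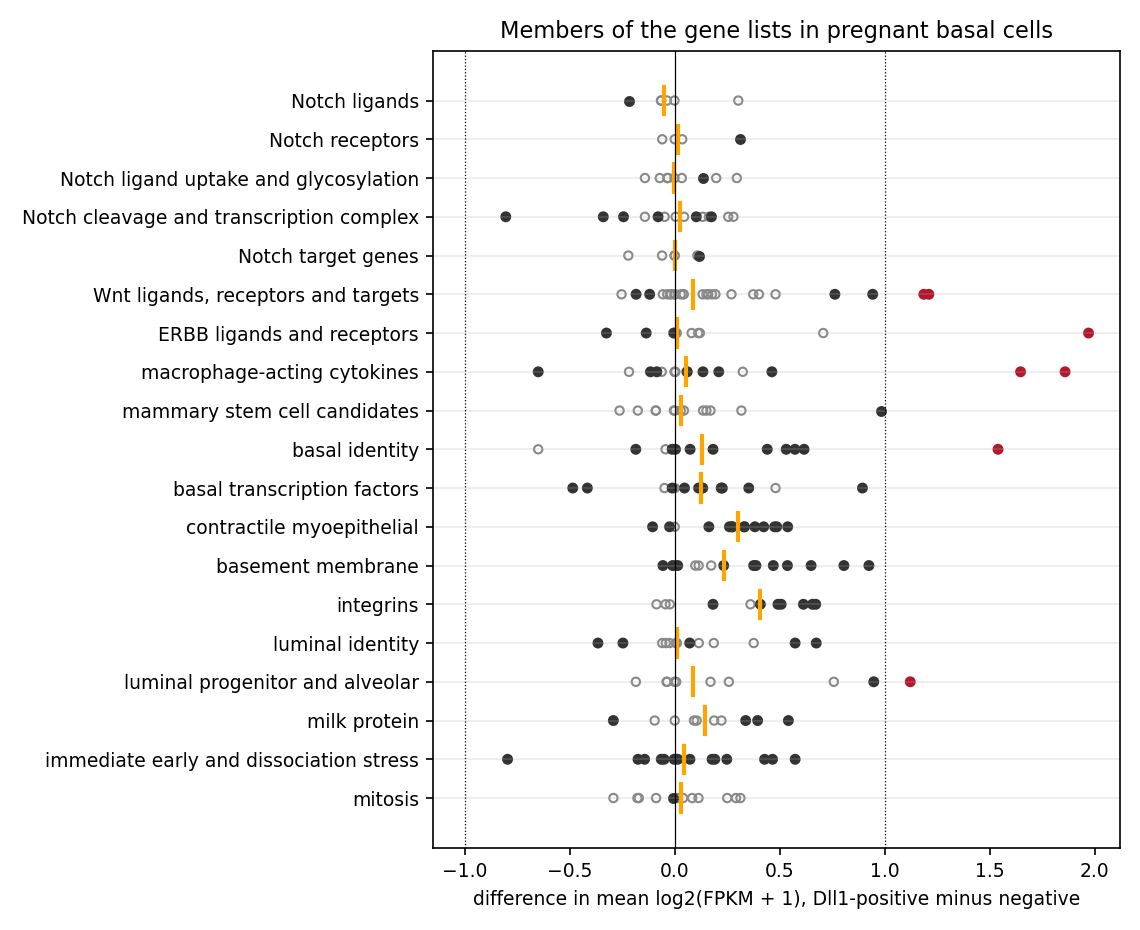
Difference in mean log2(FPKM + 1), Dll1-positive minus Dll1-negative, of the members of gene lists. Filled points are genes found (red where higher by 1 or more), open points genes below that filter, and orange bars the medians over all members. The Notch lists lie around 0 apart from Psenen at -0.80, and all 7 integrins found lie above it.

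The integrin, basement membrane and contractile lists held no called member, which is near the background of 3.19% higher and 0.625% lower of all genes found. The 7 integrins found, which anchor basal cells to the matrix, were above 0, and of the 4 not found Itga2 was at -0.09, Itgb4 at -0.04 and Itga9 at -0.02. The median over the 11 integrins was 0.41, or 0.30 in the pairs, 0.23 with gene number as a covariate and -0.01 when the division was moved to 10 FPKM of Dll1. Itga5 differed by 0.67, Itga3 by 0.66 and Itgb5 by 0.61. Of 11 basement membrane genes found, 9 were above 0, among them the laminin gene Lamb1 at 0.92, and the median over the list of 15 was 0.23, or 0.15 in the pairs and 0.14 with gene number as a covariate. Of 13 contractile genes found, 11 were above 0 with a list median of 0.30 (0.35 in the pairs, 0.16 with gene number as a covariate and 0.08 without the cells with Cdh5 or Pecam1), among them Tagln at 0.54 and Myh11 at 0.49. None of the members found in these 3 lists reached 1, and 64.8% of all genes found were above 0. The 14 dissociation stress genes, which respond to tissue digestion, had a median of 0.04, and the 11 housekeeping genes found a median of -0.02.

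Rai2, Gfer and Col18a1, from the 10 genes with the highest Spearman correlation with Dll1, were read by Dll1 level. A rise over the levels follows from that choice and is no separate result. Cells were read in 4 classes, with Dll1 at 0 (31 cells), above 0 and under 1 (21 cells), 1 to 10 (24 cells) and 10 FPKM or more (26 cells), whose median gene numbers were 2590, 2595, 2940 and 2903. Rai2, a gene studied as a transcriptional co-regulator, was found in 0, 7, 8 and 13 cells of these classes in this order. A count of 0 in 31 cells leaves room for up to 9.68% of cells by the limit of 3 cells, and 11.2% by the exact interval. Gfer, a sulfhydryl oxidase of mitochondria, was found in 2, 7, 9 and 14 cells, and Col18a1 in 13, 11, 17 and 22 cells. Rai2, Srsf6 (a splicing factor) and Gfer had the highest Spearman correlation with Dll1 among 3806 genes, each at 0.39 over all pregnant basal cells, and Api5 the lowest at -0.36. Over all 3806 genes the middle 90% of correlations ran from -0.14 to 0.20 and 0 genes reached 0.4 in size, so no gene tracked Dll1 closely. These points share depth and gene number: Rai2 correlated at 0.30 with the number of genes per cell, Srsf6 at 0.27, Gfer at 0.18 and Api5 at 0.00. Col18a1 correlated at 0.36 with Dll1 and at 0.36 with the number of genes per cell.

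Other genes took another order over the same 4 classes. Ccl2 was found in 6, 9, 10 and 12 cells, or 19.4%, 42.9%, 41.7% and 46.2%, so its share in cells with traces of Dll1 was close to that above the threshold. Hbegf was found in 2, 4, 12 and 9 cells and Ccl7 in 4, 2, 10 and 6 cells, most often in the class of 1 to 10 FPKM. The intervals of neighbouring classes overlap for all 3 genes, as for Ccl7 with 22.1 to 63.4% in the class of 1 to 10 FPKM and 8.97 to 43.6% in the class above it. Krt15 was found in 12, 4, 14 and 13 cells, and its difference was -0.04 when every cell above 0 was counted as Dll1-positive. Hk2, the hexokinase that starts glycolysis, differed by 1.06 at 1 FPKM and by -0.70 at 10 FPKM of Dll1.

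The same division of virgin basal cells gave 8 Dll1-positive and 26 Dll1-negative cells, with median gene numbers of 1825 and 1814. With so few cells the differences spread widely: 804 of 3734 genes (21.5%) were higher and 402 (10.8%) lower by 1 or more. Of the 138 genes higher in pregnant Dll1-positive cells, 71 (51.4%) were above 0 in virgin cells, beside 48% of all 4320 genes. Of the 27 lower genes, 11 (40.7%) were below 0, beside 51.9% of all genes. Both shares are near the background, so the virgin cells did not show the pregnant pattern as a set. Single genes went either way. Ctnnb1 was found in all 8 Dll1-positive and in 12 of 26 Dll1-negative virgin cells, with a difference of 3.20. Vim differed by 2.75, Sox9 by 2.11, Cd200 by 2.04, Hbegf by 1.35 and Ccl2 by 1.03, all in the direction seen in pregnancy. Nmt2, an enzyme that attaches myristate to proteins, was at -1.29, Smim7 at -0.95 and Chil1 at -0.49, against the direction seen in pregnancy, and so were Eif3f at 1.71 and Api5 at 1.20. Without the virgin cells in which Cdh5 or Pecam1 was found, 7 Dll1-positive and 19 Dll1-negative cells were left, and the share of the 138 genes above 0 was 44.2%, beside 42.2% of all genes.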

How the data were processed

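The authors deposited 1 table of FPKM values for the cells of all 4 groups and 18850 genes. The unit rests on the tools named and on the values, since no header gives it. Trimmomatic 0.35, TopHat2 2.0.13 and Cufflinks 2.2.1 with mouse build mm10 (GRCm38) are named in the submitters' processing notes, and the annotation they used is not given in the sources at hand. Per the labels, SMARTer and Nextera XT kits were used and capture sites were looked at for doublets under a microscope; doublets were not called from the data. Genes are given coordinates from GENCODE annotation of GRCm38.

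Depth was recovered from the deposited FPKM values, whose low values are whole multiples of 1 fragment: for 11513 genes chosen for a clear step, 22 of 526661 values below 20 steps were not whole within 0.05 of a step. The cells held 1.15 to 39.9 M fragments. A 0 may be a failed estimate as well as no fragment, and PCR copies cannot be told from molecules.

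Means of log2(FPKM + 1), with pseudocount 1, were compared over cells. A gene was kept if it reached 1 FPKM in 25% or more of whichever side was higher, and called at a difference of 1. Lists are 33, with 359 of 360 genes in the table. List medians cover all members in the table. The members and lists were chosen with earlier results of these data known. Named are the 10 genes at either end over all cells and over pairs, the 10 genes most like and 5 least like Dll1, up to 4 members of each list by size of difference, and set basal, luminal and Notch genes; Axin2, Lef1, Dll4, Nrarp, Psenen and other list members were added after their values were seen. Alternatives changed the pseudocount, filter, scaling, Dll1 threshold, cells, covariates and depth. Scripts ran in Python 3.11.15 with numpy 2.4.6, pandas 2.3.3 and scipy 1.17.1, and were tested on simulated data.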

Additional observations from a re-analysis of the deposited data

How the results depend on the processing

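The number of genes higher by 1 or more in Dll1-positive cells (138) was 604 with a pseudocount of 0.1, 6 with a pseudocount of 10, 299 in the 25 Dll1-positive and 25 Dll1-negative cells of middle gene number, 74 with gene number as a covariate, 223 after thinning to equal depth (224 for the same genes and cells before it) and 294 without cells at 10 FPKM of Krt18. The number lower by 1 or more (27) was 111 with a pseudocount of 0.1, 0 with 10, 86 with every cell above 0 counted as Dll1-positive, 63 and 92 with Dll1 thresholds of 5 and 10 FPKM, 213 in the cells of middle gene number, 62 in pairs, 77 with gene number as a covariate and 48 without the Krt18 cells. The median difference (0.16) was 0.28 with a pseudocount of 0.1, 0.06 with 10, 0.05 without the filter and 0.02 with gene number as a covariate. Among the named called genes, direction turned for Hk2 (-0.70 at 10 FPKM of Dll1) and Krt15 (-0.04 with every cell above 0). Of all 165 calls, 158 kept their direction at 10 FPKM, 161 at 5 FPKM and 160 with every cell above 0. The causes were not tested, though smaller sets of cells give wider differences by construction. Of the 165 calls, 129 were still past 1 in pairs, 98 with gene number as a covariate, 58 at 10 FPKM of Dll1 and 6 with a pseudocount of 10. Without cells at 1 FPKM of Cdh5 or Pecam1, an alternative chosen after seeing the data, as was the unthinned base for thinning, 152 genes were higher and 37 lower. No paired analysis was possible because the numbers in the titles only count cells and both sides lie within 1 group.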

Other observations

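Lists of cell metabolism, of which every member was found, were near the median of 0.16 over all genes found. They were nearer 0 in the pairs alike in gene number, where that median was 0.07. The median over 13 glycolysis genes was 0.21 over all cells and -0.02 in the pairs, and that over 14 oxidative phosphorylation genes was 0.17 and -0.08, with 8 of the 14 above 0. That over 13 interferon and antigen presentation genes was 0.29 and 0.04. Only 7 of these 13 were found, with a median of 0.27 over all cells, beside 0.16 over all genes found. The 0.29 over all 13 stands beside 0.05 over all genes found in any cell. Of 4 milk protein genes found over all cells, 0 differed by 1 or more, which is near the background of 3.19% higher and 0.625% lower of all genes found. Among 12 DNA replication genes the median was -0.10 over all cells and -0.15 in the pairs.

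Some genes at the top were found in the same cells. Serpinb6a and Smim7 were found together in 30 of 50 Dll1-positive and 10 of 52 Dll1-negative cells, and Hbegf and Ccl2 in 11 Dll1-positive and 3 Dll1-negative cells. Each of these genes was by itself found in more Dll1-positive cells, which raises such counts, so they show no link between the genes.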
